A study of Mus musculus with 33 samples.

Results

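Cm2848 is a cytidine of 28S ribosomal RNA whose ribose carries a methyl group in the mouse tissues sampled here, and whose score was lowest in adult kidney. It is described together with the other listed sites of the same stretch of 28S rRNA. The authors listed 108 methylated sites, 66 of them in 28S rRNA, and those at human positions 2700 to 2900 were taken, leaving 1 site out. This gave 6 members: Am2774, Cm2791, Am2802, Cm2811, Cm2848 and Gm2863, where m marks the methyl group and the number is the position in human 28S rRNA. The set was chosen by the kidney scores of Cm2848 in these same libraries, so its kidney values are given as a description, with no test. The other 5 sites entered by position alone. The nearest listed 28S sites outside the stretch are LSU-Gm2411, at 0.955 ± 0.00731 (SD, n = 3) in adult kidney, and LSU-Gm3606, at 0.949 ± 0.00909. The outermost members, Am2774 and Gm2863, were at 0.916 and 0.912 there.

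The series compared mouse tissues across development. The 11 groups were brain, heart, kidney, liver and lung, each taken from adults and at embryonic day E16.5, and the whole head at E9.5. Each group has 3 biological replicates. The labels give no strain, sex, adult age or treatment, and each library is whole-cell RNA of a whole tissue, so the cell types of a tissue cannot be told apart. Only rRNA was measured, so a tissue label could not be set against marker genes.

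Ribose methylation of rRNA is placed by fibrillarin, the methyltransferase of small nucleolar ribonucleoproteins. A box C/D snoRNA in each particle pairs with the rRNA and marks the nucleotide to be methylated, and 1 snoRNA can serve more than 1 site. From what is known of human snoRNAs, SNORD99 guides Am2774, SNORD55 guides Cm2791, SNORD95 guides both Am2802 and Cm2811, and SNORD50 guides both Cm2848 and Gm2863. The levels of these snoRNAs were not measured here.

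The 6 sites lie in 2 short runs of the deposited mouse 28S sequence, shown because the score of each site is read from the 6 nucleotides on either side of it. In both lines the methylated nucleotides are the capitals, from 5′ to 3′.
28S positions 2539 to 2588, with Am2774, Cm2791, Am2802 and Cm2811: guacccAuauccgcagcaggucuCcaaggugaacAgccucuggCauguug
28S positions 2613 to 2640, with Cm2848 and Gm2863: gcaagcCggauccguaacuucGggauaa
These positions count along mouse 28S rRNA, and each is the human position minus 229. In mouse numbering Am2774 is 2545, Cm2791 is 2562, Am2802 is 2573, Cm2811 is 2582, Cm2848 is 2619 and Gm2863 is 2634. Am2802 and Cm2811 stand 9 nucleotides apart, so their 13-nucleotide windows share positions, as do those of Cm2791 and Am2802 at 11 nucleotides. Cm2848 and Gm2863 stand 15 apart and share none. The window of Cm2848 holds 9 G or C nucleotides of 13, that of Gm2863 holds 5, and the windows of the other 4 sites hold 7 each.

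The score is 1 minus the number of read ends at a nucleotide divided by the number its neighbours predict. Alkali cuts poorly beside a methylated ribose, so a score of 1 stands for no read end at the site and 0 for as many as around it. Summed over the rRNA, libraries held from 463388 to 35156406 read ends, with a median of 8896504. The shallowest library, the third of E16.5 lung, also had the fewest flanking read ends per position at any of the 6 sites, 27.3. Across the other 194 nucleotides of mouse 28S positions 2471 to 2671, the median of the mean score was 0.117, its 95th percentile was 0.489 and its maximum was 0.726. None of them reached 0.75.

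The authors corrected some group means for barcode effects, and that correction sorts the groups into 3 library sets. Set 1 held adult brain and adult liver. Set 2 held E9.5 head, E16.5 brain, E16.5 heart, adult kidney and adult lung. Set 3 was made of adult heart with the kidney, liver and lung of E16.5. For no tissue were adult and E16.5 libraries in 1 set, so within a tissue the set and the stage cannot be told apart.

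Cm2848 was methylated in most rRNA copies in every group, and adult kidney was the lowest. In adult kidney the libraries scored 0.866, 0.818 and 0.870. In adult lung they scored 0.961, 0.973 and 0.968. The ranges of these groups lay well apart, and adult lung was the highest group of all.
The other adult tissues lay just under lung. Adult liver scored 0.963, 0.951 and 0.946, adult heart 0.957, 0.944 and 0.957, and adult brain 0.951, 0.959 and 0.941. These 3 tissues overlapped throughout.
In embryos the site was 0.969, 0.953 and 0.962 in E16.5 brain and 0.946, 0.925 and 0.953 in E16.5 heart. It was 0.926, 0.939 and 0.944 in E16.5 lung and 0.921, 0.925 and 0.936 in E16.5 kidney. E16.5 kidney thus lay among the other embryonic tissues.
E9.5 whole heads scored 0.929, 0.916 and 0.932. E16.5 liver, where blood formation takes place at that stage, scored 0.909, 0.888 and 0.922 and was the group nearest to adult kidney.

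**Figure D1:**
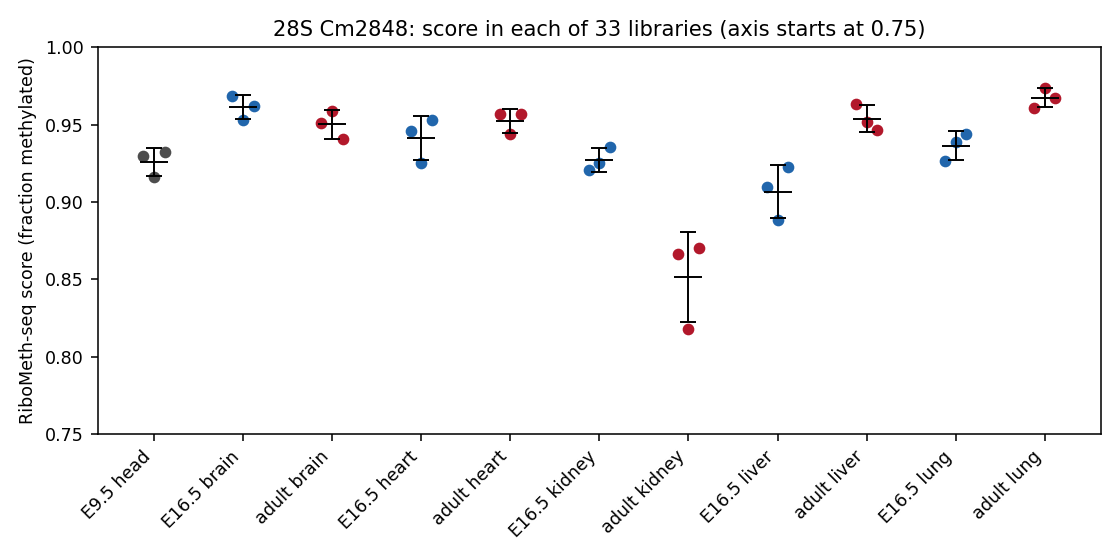
RiboMeth-seq score of Cm2848 (fraction methylated, axis from 0.75) in each library, by group. Points are libraries (red adult, blue E16.5, grey E9.5), and the black marks are the mean and SD of 3. The 3 adult kidney libraries lie at 0.818 to 0.870, and no other library is below 0.888.

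By group mean the order from the top was adult lung (0.967 ± 0.00621, SD, n = 3), E16.5 brain (0.961 ± 0.00774), adult liver (0.954 ± 0.00875), adult heart (0.952 ± 0.00755) and adult brain (0.950 ± 0.00926). Then came E16.5 heart (0.941 ± 0.0143), E16.5 lung (0.936 ± 0.00916), E16.5 kidney (0.927 ± 0.00771), E9.5 head (0.926 ± 0.00882) and E16.5 liver (0.907 ± 0.0173). Adult kidney closed it at 0.851 ± 0.0292. Neighbours in this order overlapped at every step but the last, between E16.5 liver and adult kidney. Adult kidney also had the widest spread of the 11 groups at this site.

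Adult kidney shares its library set with adult lung, E16.5 brain, E16.5 heart and E9.5 head. Within that set the other 12 libraries scored from 0.916 to 0.973 at Cm2848, all above the 3 of adult kidney. The mean of adult kidney was 0.104 below that of the other 4 adult tissues pooled (mean 0.956), and the difference from adult lung alone, in the same set, was -0.116. Over the 107 sites that could be tested, 3 had a larger drop in adult kidney against the other adult tissues. These were SSU-Gm436 (-0.265), LSU-Gm4340 (-0.140) and SSU-Gm683 (-0.134), where SSU is 18S and LSU is 28S rRNA, all named here after their values were seen. The authors' barcode correction touches kidney means at some sites. In the authors' deposited table of corrected means the difference was -0.265 at SSU-Gm436, -0.0435 at LSU-Gm4340 and -0.00485 at SSU-Gm683, and -0.104 at Cm2848.

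The low score in adult kidney can also be given as counts of read ends. Cm2848 had 376, 430 and 326 read ends in the adult kidney libraries. As a share of all ends in its 13-nucleotide window this was 1.24% on average, from 1.09% to 1.53%. In the other groups the mean share ran from 0.280% to 0.796%, and the highest single library had 0.972%. At each of the 12 flanking positions the adult kidney mean lay inside the range of the other groups' means. The score is by definition the count at the site set against its flanks, so the higher share restates the low score. The ranges at the flanks were wide, for example from 8.43% to 18.8% at distance -3. With 3′ ends counted alone, 1 of the 12 flanking positions lay outside the range of the other groups' means.

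**Figure D2:**
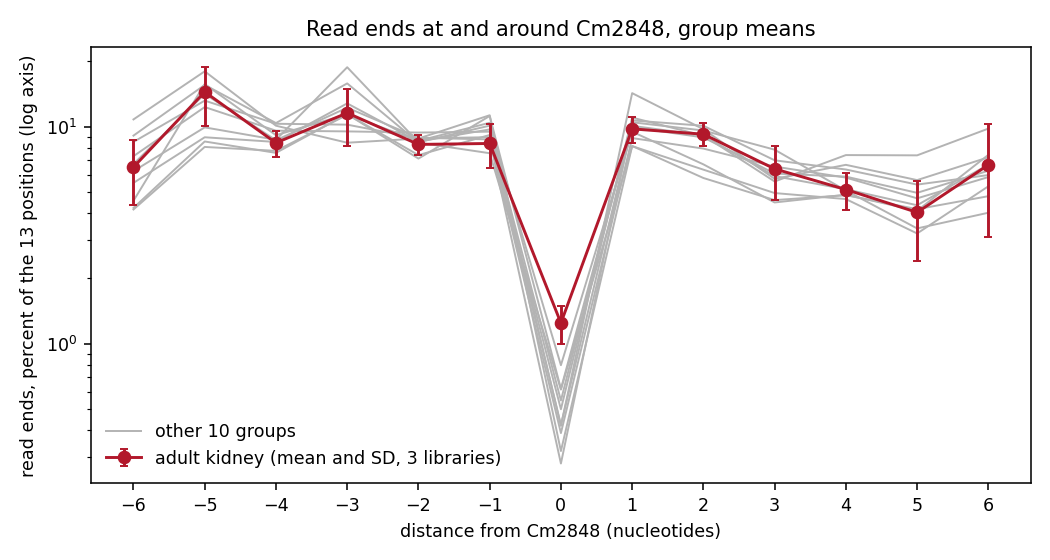
Read ends at each distance from Cm2848 as a percent of the 13 positions (log axis). Grey lines are the means of the other 10 groups, and the red line is adult kidney with the SD of 3 libraries. At the site adult kidney has 1.24% and the others at most 0.796%, while at the 12 flanking positions the red line stays within the grey ones.

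The score can be made from the 5′ ends of reads or from the 3′ ends alone. From 5′ ends the adult kidney libraries scored 0.878, 0.815 and 0.870, and every other library was at 0.885 or more. From 3′ ends they scored 0.706, 0.847 and 0.872, and 6 of the other 30 libraries fell below the highest of these, down to 0.612. In that version 1 other group mean was below that of adult kidney. The separation of adult kidney thus shows in the 5′ ends, and in the 3′ ends it is not complete.

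Cm2848 stood lower against its neighbours in adult kidney than in the other groups. Per library, the score of Cm2848 was set against the median of the other 5. In adult kidney Cm2848 lay 0.148 below that median at the extreme library and 0.0912 below it at the mildest, with a mean difference of -0.117 ± 0.0289 (SD, n = 3). In the other groups the mean difference ran from -0.0332 in adult brain to 0.0440 in E16.5 lung, and single libraries ran from -0.0692 to 0.114. Cm2848 was the lowest of the 6 sites in 3 of 3 adult kidney libraries and in 10 of the other 30. Those 10 include 3 of 3 adult brain and 2 of 3 adult liver libraries, so being the lowest site was not particular to adult kidney.

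Among the neighbours, 3 had adult kidney means well above that of Cm2848. Cm2791 scored 0.985 ± 0.00324, Am2802 scored 0.985 ± 0.00565 and Cm2811 scored 0.969 ± 0.00854. Am2774 scored 0.916 ± 0.0176 and Gm2863 scored 0.912 ± 0.0254. In limma's test of adult kidney against the other adult tissues, 1.87% of all tested sites were called at an adjusted p under 0.05, and 0 of these 5 were. At an unadjusted p under 0.05 the count was also 0 of 5, against 5 of 107 over all tested sites.
Gm2863, which in humans has the same guide snoRNA as Cm2848, had the lowest estimate of the 5. Its difference was -0.0460 ± 0.0316 (SE), with a 95% interval from -0.111 to 0.0191 and an adjusted p of 0.951. That interval includes the -0.104 of Cm2848, so the difference between these sites in kidney is not resolved by this test. For Am2802 the interval ran from -0.0132 to 0.0179 around a difference of 0.00233, and it excludes a drop of that size. Am2774 had -0.0255, with an interval from -0.0789 to 0.0279. For Cm2791 the difference was 0.0230 with an interval from -0.0296 to 0.0757, and for Cm2811 it was -0.000617 with an interval from -0.100 to 0.0989. From 5′ ends alone Gm2863 scored 0.884, 0.871 and 0.920 in adult kidney, with a mean of 0.891. The other adult tissues had higher means from these ends, from 0.945 in liver to 0.977 in heart. E16.5 lung was lower, at 0.888. Adult kidney was not tested against the other adult tissues from 5′ ends alone.

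**Figure D3:**
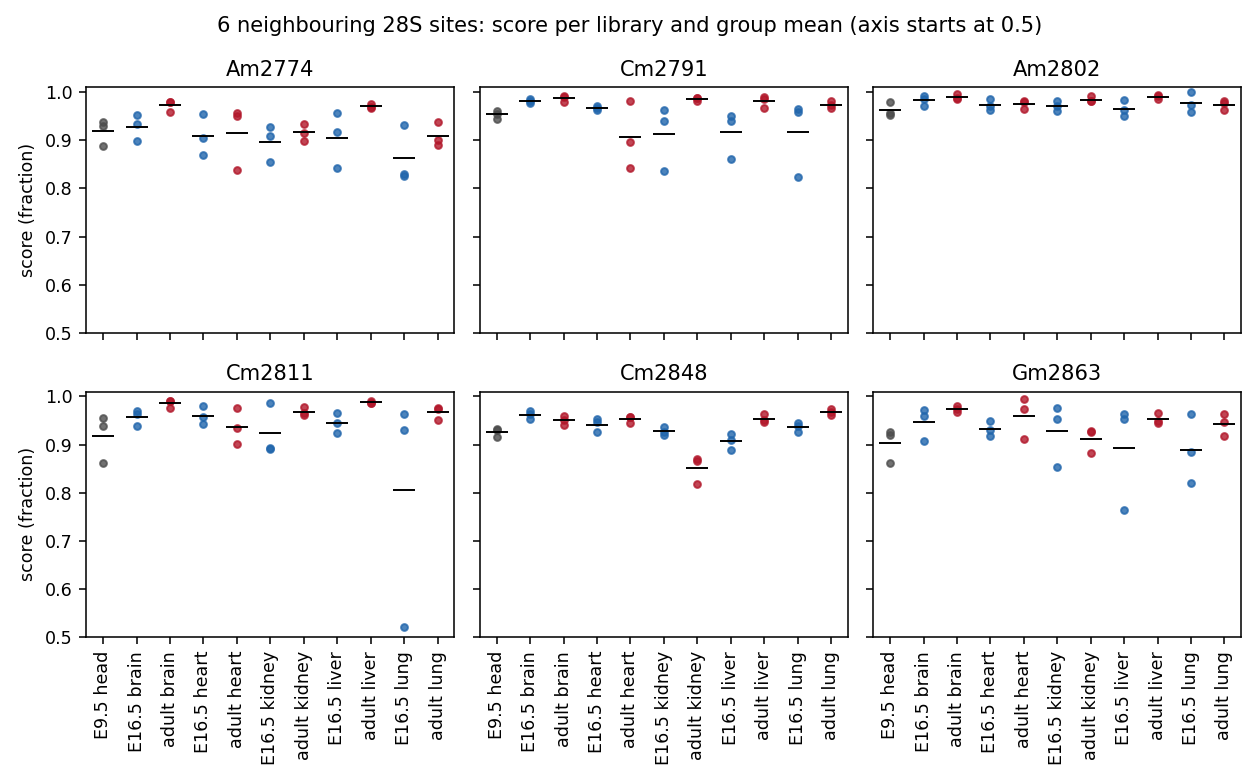
RiboMeth-seq score (fraction methylated, axis from 0.5) of the 6 sites in every library by group. Points are libraries (red adult, blue E16.5, grey E9.5) and black bars are group means. Adult kidney stands apart at Cm2848 (0.851) and not at Cm2791 (0.985) or Am2802 (0.985), and the lowest point of all is Cm2811 in 1 E16.5 lung library at 0.521.

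The 6 sites differed in level and in how steady they were. Am2802 had the highest mean over all libraries (0.977) and was at 0.9 or above in 33 of 33. Cm2791 averaged 0.953 and reached 0.9 in 28 libraries, Cm2811 averaged 0.941 and reached it in 29, and Cm2848 averaged 0.934 and reached it in 29. Gm2863 averaged 0.930 with 27 libraries, and Am2774 averaged 0.919 with 23.
The pooled SD within groups was 0.0118 at Am2802 and 0.0131 at Cm2848. It was 0.0399 at Am2774, 0.0414 at Cm2791, 0.0505 at Gm2863 and 0.0790 at Cm2811. At Cm2848 the group means spanned 0.116, from adult kidney to adult lung. At Am2802 the group means spanned only 0.0270, from E9.5 head (0.963) to adult brain (0.990).

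Am2802 had the highest group mean of the 6 sites in every group but adult kidney, where Cm2791 was level with it. In adult brain it scored 0.997, 0.988 and 0.986, and in adult liver 0.991, 0.994 and 0.985. In adult kidney it scored 0.981, 0.991 and 0.982. These 9 libraries all lay above 0.98.
It was lower and more scattered in adult heart, at 0.981, 0.980 and 0.965, and in adult lung, at 0.977, 0.981 and 0.962. In E16.5 brain it scored 0.991, 0.972 and 0.986, in E16.5 heart 0.962, 0.985 and 0.970, and in E16.5 kidney 0.982, 0.970 and 0.962. These 5 groups overlapped one another.
In E16.5 liver Am2802 scored 0.983, 0.951 and 0.963, and in E16.5 lung 0.958, 0.973 and 1, the last from a library with no read end at the site. In E9.5 head it scored 0.957, 0.979 and 0.953, and all 3 lay below those of adult brain.

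Across the 5 tissues, adult means were mostly above E16.5 means, but the tissues differed. Am2774 was higher in the adult mean in 5 of 5 tissues, Cm2791, Am2802, Cm2811 and Gm2863 in 4 of 5, and Cm2848 in 3 of 5. The same held for most sites: averaged over tissues, 99 of 107 tested sites had a positive difference, with a median of 0.0324. Adult library medians over all tested sites were above E16.5 medians by 0.0231 in brain, 0.0148 in heart, 0.0349 in kidney, 0.0543 in liver and 0.0403 in lung. With these library medians set equal, the adult mean was higher in 4 of 5 tissues at Gm2863, in 3 of 5 at Am2774, Cm2791 and Cm2811, and in 0 of 5 at Am2802 and Cm2848. Apart from Cm2848 in brain and kidney and Am2802 in lung, which were negative under both, the signs of Am2802 and Cm2848 changed with this scaling. Scores cannot exceed 1, and Am2802 already averaged 0.983 in E16.5 brain, 0.972 in kidney, 0.965 in liver and 0.977 in lung. A rise there as large as the shift of the medians was not possible. Its negative values in these tissues were thus fixed in advance and show no direction.

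Liver was the tissue where a member rose. Cm2848 was 0.0471 higher in adult than in E16.5 liver (limma, adjusted p = 0.0105, SE 0.0138), with all 3 adult libraries above all 3 embryonic ones. The share of all tested sites called there was 28%, and 1 of the 6 members was called, below that background. The rise was no larger than the shift of the whole library in liver: with library medians set equal it was -0.00724 (adjusted p = 0.860). It was 0.00731 from 3′ ends alone (adjusted p = 0.973) and 0.0266 after thinning to the shallowest library (adjusted p = 0.567). With the compared groups fitted alone it was 0.0471 with an adjusted p of 0.148. Without the first adult liver library it was 0.0423 (adjusted p = 0.0519), and without the second E16.5 liver library it was 0.0378 (adjusted p = 0.0685), so the call rests on each of these libraries.
Same-numbered libraries of a library set deviated together, so the fit was repeated with set and number as a block. With that block 2 of 6 members were called in liver, Cm2848 (adjusted p = 0.0253) and Cm2791 (0.0645 higher, adjusted p = 0.0475), against 29.9% of all sites.
The other members were also higher in adult liver, by 0.0647 at Am2774, 0.0645 at Cm2791, 0.0429 at Cm2811, 0.0601 at Gm2863 and 0.0245 at Am2802. For Am2802 the adjusted p was 0.0553. Setting library medians equal gave -0.0298 at Am2802 and -0.0115 at Cm2811. The sign at Am2802 was fixed by the ceiling of scores at 1.

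In the remaining tissues no member passed the test. In brain 7.48% of all sites were called and 0 of 6 members were. In heart 7.48% were called and again 0 of 6 were. In lung 15.9% were called and 0 of 6 were, with Cm2848 at 0.0309 (limma, adjusted p = 0.149) and all 3 adult libraries above all 3 embryonic ones. The difference of Cm2848 was -0.0112 in brain and 0.0110 in heart, where the groups overlapped. In lung and heart it was -0.00942 and -0.00381 with library medians set equal. With the block in the fit 4.67% of sites were called in brain, and the members' counts stayed at 0 in all 3 tissues.
At an unadjusted p under 0.05, 0 of the 5 members besides Cm2848 passed in brain, 0 in heart and 1 in lung. Cm2848 itself passed in lung (limma, unadjusted p = 0.0348) and not in brain (0.426) or heart (0.433). Over all 107 tested sites the counts were 13 in brain, 19 in heart and 28 in lung.

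Kidney went the other way at Cm2848. Adult kidney was 0.0757 below E16.5 kidney, and all 3 adult libraries lay below all 3 embryonic ones. With library medians set equal the difference was -0.111. Of the other 5 members, 4 had a positive difference in kidney and 0 were called, against 11.2% of all sites. Their differences were 0.0191 at Am2774, 0.0717 at Cm2791, 0.0130 at Am2802, 0.0455 at Cm2811 and -0.0158 at Gm2863. Those of Am2774 (-0.0158) and Am2802 (-0.0219) were negative with library medians set equal.

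**Figure D4:**
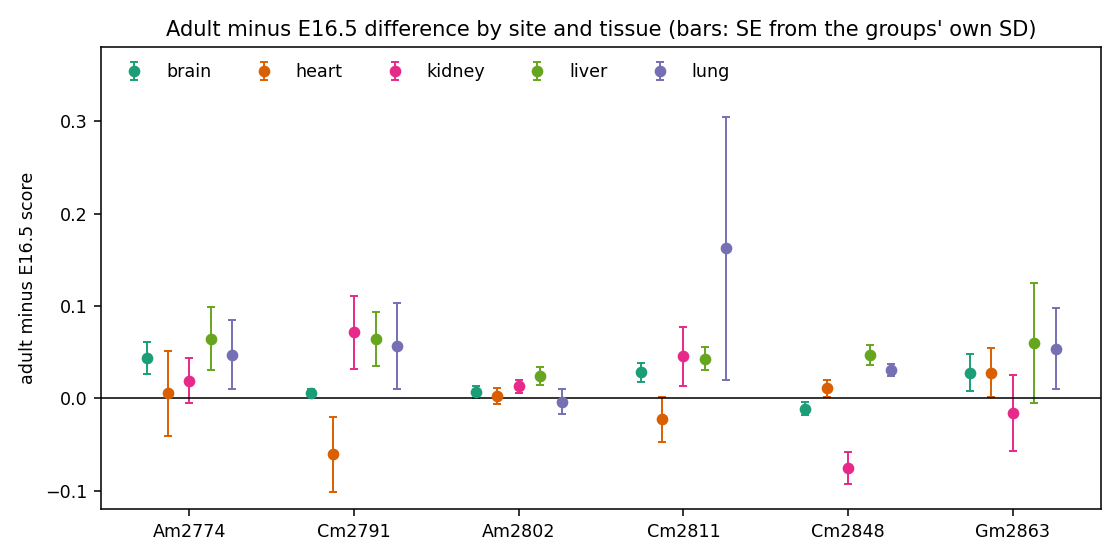
Adult minus E16.5 difference in score at each site, by tissue. Points are differences of group means of 3 libraries, and bars are the standard error from the SD of the 2 groups. At Cm2848 kidney lies at -0.0757 and liver at 0.0471. The wide bar at Cm2811 in lung comes from 1 E16.5 library.

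Averaged over the 5 tissues, 38.3% of all sites were called and 0 of the 5 members besides Cm2848 were. Am2774 came nearest, at 0.0361 ± 0.0147 (SE; limma, adjusted p = 0.0536). With the block 42.1% of sites and 2 of these 5 members were called, Am2774 (adjusted p = 0.0236) and Cm2791 (0.0277 higher, adjusted p = 0.0353). Setting library medians equal gave -0.00584 at Cm2791. In the averages Cm2848 was at 0.000428, since its kidney value is opposite in sign to liver and lung.
Tissue dependence of the change between stages was examined with limma's F test, in which 13.1% of all sites were called and 0 of these 5 were. Leaving kidney out, 12.1% were called and 0 of 6 members were, with an adjusted p of 0.242 at Cm2848. A p above the threshold does not show that the tissues were alike.

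Brain could be followed from E9.5 whole heads onwards, where heads hold many tissues besides brain. Between E9.5 head and E16.5 brain 8.41% of all sites were called and 0 of 6 members were. Cm2848 was 0.0355 higher in E16.5 brain (limma, adjusted p = 0.120), with groups that did not overlap and lay in the same library set. With the block, which pairs these libraries by number, 21.5% of sites were called and 1 of 6 members was, Cm2848 (adjusted p = 0.0193). Library medians over all tested sites were 0.948 in E16.5 brain and 0.917 in E9.5 head. That gap is nearly as large as the rise at Cm2848, and the median difference over all tested sites was 0.0247. How far the rise was shared by the whole library was not tested.
Between E9.5 head and adult brain 32.7% were called and 1 of 6 members was. That member was Am2802, which rose by 0.0270 ± 0.00954 (SE; limma, adjusted p = 0.0322). With library medians set equal the difference was -0.0270 (adjusted p = 0.353), while the median over all sites was 0.0540 higher in adult brain. Am2802 averaged 0.963 in E9.5 head, so a rise that large could not occur under the ceiling of scores at 1. The call was also lost without any 1 of the adult brain libraries (adjusted p from 0.0645 to 0.112) and without the first (0.0932) or the third (0.144) E9.5 head library. With the block 0 of 6 members were called, and Am2802 had an adjusted p of 0.0936, against 29% of all sites. Cm2848 was 0.0243 higher in adult brain (adjusted p = 0.175), and with library medians set equal it was at -0.0297.

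Between tissues of 1 stage, 1 member was called, in embryos. Among the 5 adult tissues 4.67% of all sites were called by the F test and 0 of the 5 members besides Cm2848 were. Among adult brain, heart, liver and lung 1.87% were called and 0 of 6 members were, and the Cm2848 means spanned 0.0172 (limma, adjusted p = 0.983). With the block 7.48% of sites were called among the 5 tissues. Without kidney the block left 0 sites called by limma, while 15 had an unadjusted p under 0.05.
Among the 5 E16.5 tissues 16.8% were called and 0 of 5 members were, and with the block 29% were called and again 0 of 5 were. Among E16.5 brain, heart, liver and lung 18.7% were called and 1 of 6 members was. That was Cm2848, whose means spanned 0.0548 from liver to brain (adjusted p = 0.0313). These 4 tissues lie in 2 library sets, and within sets the widest span was 0.0298, between liver and lung. An F test over brain against heart and liver against lung together gave an adjusted p of 0.313. For liver against lung alone limma's adjusted p was 0.191. The call was also lost without any 1 of the E16.5 brain libraries (adjusted p from 0.0510 to 0.100) and without the first (0.0684) or second (0.161) E16.5 liver library.

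For liver, counts can be set beside those of other stretches of 28S rRNA. Of 8 listed sites at human positions 2338 to 2411, 6 were called between adult and E16.5 liver, and of 8 at positions 3606 to 3771 1 was. Of the 6 members 1 was, Cm2848, and of the 5 besides it 0 were. Over all tested sites the share called was 28%. The difference between these stretches was not tested. Their median liver differences were 0.0635, 0.0224 and 0.0601 in that order, so the 5 members had a median close to that of all sites (0.0570). At 4 of these 5 the within-group spread was 0.0399 or more.

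The scatter at the neighbours went with the set and the replicate number of a library. At Cm2791 the first libraries of the 4 groups of set 3, scored from 0.824 to 0.860, and the other 29 libraries from 0.897 to 0.992. The gap lay in the 3′ ends. From 3′ ends alone these 4 libraries scored from 0 to 0.468 and the others from 0.860 to 1. From 5′ ends alone they scored from 0.923 to 0.970, inside the 0.892 to 0.994 of the others.
The same 4 libraries scored from 0.825 to 0.855 at Am2774 and from 0.763 to 0.912 at Gm2863. In set 2 the third libraries scored from 0.824 to 0.889 at Gm2863 from 3′ ends, below the first and second libraries of that set (0.924 or more). At Am2774 their median from 3′ ends was 0.858, against 0.926 and 0.901, and the ranges overlapped. At Am2802 all libraries of all sets scored 0.951 or more.
With the first libraries of set 3 left out, a choice made after seeing the data, 2 of 6 members were called in liver, Cm2848 and Am2802. In adult brain against E9.5 head 3 of 6 were called, Cm2791, Am2802 and Gm2863. The share of all sites called is not given for this choice, so these counts have no background. With all 33 libraries it was 28% in liver and 32.7% in adult brain against E9.5 head.

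**Figure D5:**
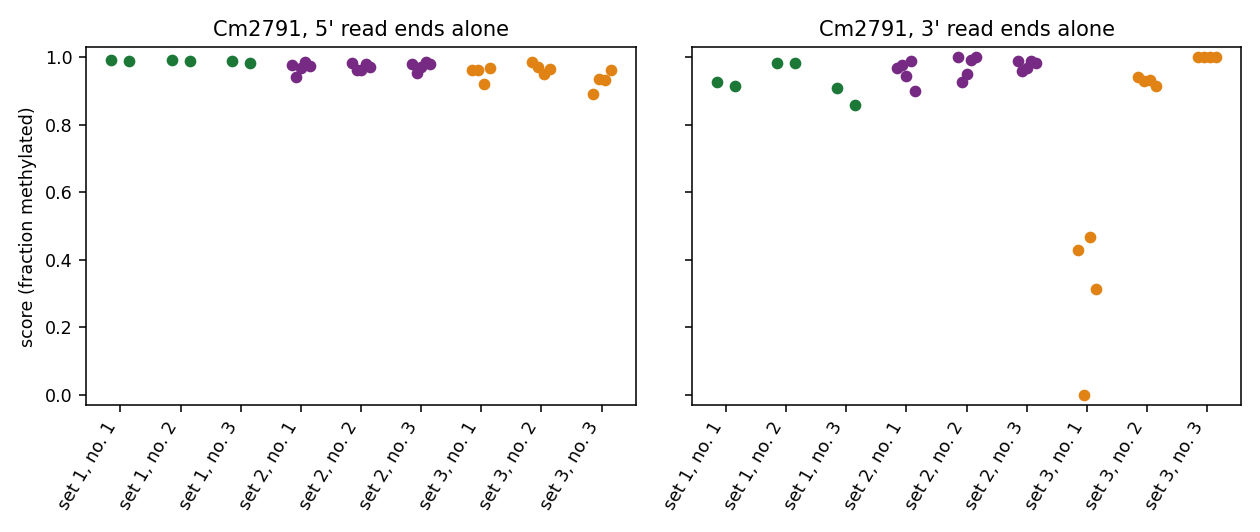
Score of Cm2791 (fraction methylated) from 5′ read ends alone (left) and 3′ read ends alone (right). Each point is a library, placed by library set (colour) and by replicate number. From 3′ ends the 4 first libraries of set 3 lie at 0 to 0.468 and all others at 0.860 or above, while from 5′ ends the 33 libraries lie between 0.892 and 0.994.

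At Cm2811 1 library stood alone. The third E16.5 lung library scored 0.521, against 0.929 and 0.963 in the other E16.5 lung libraries. From 3′ ends it scored 0.467 and from 5′ ends 1, on 21 read ends at the site. It was the only member for which the authors' barcode correction changed a group mean. Without the first or the second E16.5 lung library Cm2811 was called in lung (limma, 0.225 with adjusted p = 0.0140, and 0.242 with adjusted p = 0.00412), calls that rest on that library.

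The sites most like Cm2848 across the 11 group means, as a description, were Gm2863 (Pearson's r = 0.576), LSU-Gm4198 (0.416) and SSU-Am668 (0.394). Over the 10 groups without adult kidney r was 0.743, 0.642 and 0.907. The points share library sets and overall library levels. In adult kidney Gm2863 averaged 0.912, LSU-Gm4198 0.976 and SSU-Am668 0.892, each inside the range of its own other groups.
The other members had lower correlations, from 0.0325 at Cm2791 to 0.226 at Am2774. Leaving out adult kidney raised them to 0.598 and 0.379.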

How the data were processed

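Per the labels' protocols, RNA was partly hydrolysed with alkali, sized, ligated and sequenced on an Ion Proton. Tools listed in the submitters' processing notes are Bowtie2 2.3.4.1 and cutadapt 2.0, without roles. The authors deposited counts of 5′ and 3′ read ends per nucleotide and a fraction methylated, per the file headers, and a table of group means of this score after a barcode correction. The fraction was rebuilt from the counts (6 neighbours a side, weights 1 to 0.5) within 5e-10. All 11 sheets carry the same header names, so groups came from sheet names, which matched the authors' means at 84 to 104 of 108 sites, and other groups' at 2 at most. The RefSeq table was used only for snoRNA symbols.

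Scores of the 107 sites with at least 10 flanking read ends were fitted with limma 3.58.1 (R 4.3.3) over 33 libraries, with Benjamini-Hochberg adjustment, two-sided, called at an adjusted p under 0.05. Tests whose contrast holds kidney gave no p for Cm2848. Named sites were all members and the 3 sites most correlated with Cm2848. The 3 sites with a lower adult kidney difference were named after their values were seen, and the nearest sites outside the stretch and the members of the 2 comparison stretches by position. Members, lists and comparison stretches were chosen with earlier results of these data known. Library sets were inferred from the authors' correction at SSU-Am1031 and SSU-Gm683 alone. Within a library set, deviations of same-numbered libraries from their group means correlated in 51 of 51 pairs, from 0.587 to 0.921. The pairing comes from these values and not from the labels, so a block of set and number (duplicateCorrelation, correlation 0.509) was added after seeing the data. The fit was tested on simulated data. Alternatives are listed in the closing section.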

Additional observations from a re-analysis of the deposited data

Results flagged for a closer look

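At Cm2848 the adult minus E16.5 difference had opposite signs between tissues. All 3 adult kidney libraries lay below all 3 E16.5 kidney libraries, while in liver and in lung all 3 adult libraries lay above the embryonic ones. The kidney difference minus the liver difference was -0.123, and the kidney difference minus the lung difference was -0.107. Neither was tested, because kidney values chose the site. In all 3 tissues the stages lie in different library sets. Kidney and lung share a set in adults and another at E16.5, so an additive set difference cancels between them. It does not cancel between kidney and liver. With library medians set equal, Cm2848 was at -0.111 in kidney, -0.00724 in liver and -0.00942 in lung, so the signs were then alike.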

How the results depend on the processing

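Of the single-site results under other settings, 884 kept their direction and side of the threshold, 32 gained a call, 12 lost one and 42 changed direction. With library medians set equal, the ceiling of scores at 1 fixed the sign of Am2802 in brain, kidney, liver, the mean and adult brain against head. It also fixed that of Cm2791 in brain and in adult brain against head. More changes of direction came with library medians set equal than with any other setting. In adult against E16.5 brain these were Cm2791 (-0.0174) and Am2802 (-0.0159). In heart they were Am2774 (-0.00939), Am2802 (-0.0121) and Cm2848 (-0.00381), in kidney Am2774 (-0.0158) and Am2802 (-0.0219), and in lung Cm2848 (-0.00942). In liver they were Am2802 (-0.0298), Cm2811 (-0.0115) and Cm2848 (-0.00724), and in the mean Cm2791 (-0.00584), Am2802 (-0.0248) and Gm2863 (-0.00265). For E16.5 brain against head they were Am2774 (-0.0212), Cm2791 (-0.00280) and Am2802 (-0.0111). For adult brain against head they were Am2774 (-0.000414), Cm2791 (-0.0202), Am2802 (-0.0270) and Cm2848 (-0.0297). From 5′ ends alone they were Cm2811 in brain (-0.00239), Am2774 (-0.00994), Am2802 (-0.00534) and Cm2811 (0.00342) in heart, Cm2811 in kidney (-0.0135), Am2774 in liver (-0.000983), Am2802 in lung (0.00208) and Am2774 in E16.5 brain against head (-0.0110). From 3′ ends alone they were Cm2791 (-0.0453) and Cm2848 (0.00562) in brain, Am2774 (-0.00359) and Cm2848 (-0.0833) in heart, Am2802 in kidney (-0.00553) and in the mean (-0.00191), and Cm2791 in adult brain against head (-0.0144). After thinning they were Cm2848 in brain (0.00442), Am2774 (-0.0522) and Cm2811 (0.0100) in heart and Am2802 in lung (0.00248). Without the first libraries of set 3, with or without the third E16.5 lung library, Gm2863 in liver was at -0.00485. Leaving out 1 library at a time turned 12 further values. The ranges were -0.0154 to 0.0444 for Am2774 in heart, -0.00261 to 0.00912 for Am2802 in heart, -0.00209 to 0.0344 for Am2774 in kidney, -0.0531 to 0.00875 for Gm2863 in kidney, -0.00485 to 0.0953 for Gm2863 in liver, -0.0131 to 0.00766 for Am2802 in lung and -0.00561 to 0.0244 for Am2774 in E16.5 brain against head.

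Counts of members called were 1 in liver, 0 in lung, 0 in the mean, 1 in adult brain against E9.5 head, 1 among E16.5 tissues without kidney and 0 for the difference by tissue without kidney. With medians set equal the counts were 0 in liver, 1 in the mean, 0 in adult brain against head and 0 among E16.5 tissues. The 1 in the mean was Am2802, lower in adults at -0.0248, a sign fixed by the ceiling of scores at 1. From 5′ ends alone they were 3 in liver, 1 in lung, 1 in the mean, 2 in adult brain against head, 2 among E16.5 tissues and 1 for the difference by tissue. From 3′ ends alone they were 0 in liver, 0 in adult brain against head and 0 among E16.5 tissues. With the rebuilt corrected score they were 1 in the mean and 2 in adult brain against head, and with flat flank weights 1 in the mean. Thinned to the shallowest library they were 1 in the mean, 0 in adult brain against head and 0 among E16.5 tissues. Adult brain against head gave 0 at a coverage minimum of 50, where only 2 members were still tested and Am2802 was not among them, 0 with no variance trend and 5 with the compared groups alone. E16.5 tissues gave 0 with those groups alone and 0 within library sets. With the replicate number as 1 block across all sets the counts were 2 in liver and 1 in the mean, although between the stages of a tissue, which lie in different sets, deviations of same-numbered libraries correlated only from -0.725 to 0.471. With the replicate number as a block within library sets they were 2 in liver, 2 in the mean, 1 in E16.5 brain against head and 0 in adult brain against head, and no other call of a member changed. Leaving out 1 library at a time gave 0 to 2 in liver, 0 to 1 in lung, 0 to 2 in the mean, 0 to 2 in adult brain against head, 0 to 1 among the 5 E16.5 tissues, 0 to 1 for the difference by tissue, 0 to 2 among E16.5 tissues without kidney and 0 to 1 for the difference by tissue without kidney. Among settings added after seeing the data, leaving out the first libraries of set 3 gave 2 in liver and 3 in adult brain against head. Leaving out the third E16.5 lung library as well gave 2 in liver, 1 in the mean and 5 in adult brain against head. Outside the main fit and the block within library sets, no share of all sites called is given for any of these settings. Those counts thus have no background. Cm2848 minus the median of the other sites in adult kidney, -0.117, was -0.155 from 3′ ends and -0.148 after thinning. The causes were not tested.

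Counting depth limits the third E16.5 lung library most, with 6 read ends at Cm2848.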
